A study of Mus musculus with 55 samples.

Results

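The knockout of Fmr1 was measured in both D1 and D2 pyramidal neurons of the mouse prefrontal cortex, and the comparison described here is the difference between those effects, gene by gene. It used all 54 neurons, of 55 in the series, that the labels mark as having passed quality control. For each gene the knockout difference in D1 neurons (knockout minus wild type) was set beside the same difference in D2 neurons, and the D2 value was subtracted from the D1 value to give the difference of differences. Genes that were higher in the knockout in one kind of neuron and lower in the other are the subject of this section.

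Each sample was the cytosol of 1 neuron, drawn into a patch pipette and sequenced as its own library. There were 15 D1 neurons without a knockout, from mice of 28 to 34 days, and 26 such D2 neurons, from mice of 29 to 35 days; both are called wild type here. The 6 knockout D1 neurons came from mice aged 31 and 32 days, and the 7 knockout D2 neurons all from mice aged 32 days. The labels state only that the wild-type cells carry no knockout; strain, sex, the Fmr1 allele, the way D1 and D2 neurons were told apart and the animal of each cell are not stated in the labels. With no animal named, each group counts as 1 sample, no test between groups was possible, and no p-value is given; the SD between cells is a description. A label named side had the value 1 in every D2 neuron and 2 in every D1 neuron. Its meaning is not stated, so side and kind cannot be told apart.

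Fmr1 encodes FMRP, an RNA-binding protein that travels with messenger RNAs into dendrites and represses their translation, and its loss causes fragile X syndrome. Prefrontal pyramidal neurons receive dopamine through receptors of a D1 family, coupled to stimulation of adenylyl cyclase, and a D2 family, coupled to its inhibition. In prefrontal cortex, D1 and D2 receptor neurons differ in projection and firing, and the transcripts that FMRP binds include those of receptors, channels and synaptic scaffolds.

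Fmr1, the targeted gene, was at 0 reads in all 13 knockout neurons. Many wild-type neurons of both kinds also had no Fmr1 read, among them gene-rich ones such as D1 neuron 8 and D2 neuron 4. Absence of Fmr1 reads in a single neuron thus does not mark its genotype. Fmr1 counts summed over wild-type neurons were at least 1306-fold higher in D1 and at least 882-fold higher in D2 than a floor of 3 counts over each knockout group. The labelled kinds were marked by their receptors only in part, and only in the wild type. Drd2 had no read in any neuron. Drd1 was read in 4 of 15 D1 and 2 of 26 D2 neurons of the wild type and, with the knockout, in 0 of 6 D1 and 3 of 7 D2 neurons, so that among knockout cells it was read only in neurons labelled D2. The differences from wild type were -2.03 (D1) and 2.25 (D2), and the 3 knockout D2 neurons with reads had 78.2, 29.8 and 106 CPM (counts scaled to a common total per cell). The D1 minus D2 difference of Drd1 was 1.71 in wild-type and -2.57 in knockout neurons. Drd5, which also belongs to the D1 family, differed in one direction, by -1.13 and -1.42; 1531 of its 3152 exon bases lie opposite another gene, and libraries of this kind do not mark strand. Fxr1 and Fxr2, the autosomal relatives of Fmr1, differed by 0.99 and 0.68 in D1 and by 0.34 and 2.39 in D2 neurons; Fxr1 turned to a negative difference of differences under 3 of the alternatives given in the closing section.

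Libraries held 260943 to 10673072 counts. Neurons with reads in at least 4000 genes, called gene-rich here, made up 9 of 15 D1 and 13 of 26 D2 neurons of the wild type and, with the knockout, all 6 D1 and 6 of 7 D2 neurons, so that the knockout groups held fewer gene-poor cells than the wild type. The part of this imbalance in the results was not tested, and values in gene-rich cells are given beside the lists they bear on. Slc17a7, the vesicular glutamate transporter of cortical pyramidal neurons, had reads in 13 of 15, 26 of 26, 6 of 6 and 7 of 7 neurons in the same order, and Gad1, of inhibitory neurons, in 4, 11, 1 and 4.

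Over the 11364 genes measured (averaging 1 CPM or more and read in 10% of cells or more), the median knockout difference in mean log2(CPM + 1) was 0.89 in D1 and 0.55 in D2 neurons, and the median difference of differences was 0.38. Gene-rich cells gave medians of 0.10, -0.37 and 0.50, and opposite signs for 33.6% (higher in D1) and 19.2% (lower in D1) of genes. The larger part lay on one side in both kinds: 5829 (51.3%) were higher in the knockout in both kinds and 1145 (10.1%) lower in both. Opposite signs were found for 2421 genes (21.3%) higher in knockout D1 and lower in knockout D2 and for 1918 (16.9%) with the reverse pattern. Taking each kind alone, 47.3% of genes were at least 1 log2 unit higher and 7.59% at least 1 lower with the knockout in D1, and 36% and 6.78% in D2. With at least 1 log2 unit required in each kind, 314 genes (2.76% of those measured) were higher in D1 and lower in D2, and 304 (2.68%) were lower in D1 and higher in D2. The D1-higher share of these calls was 50.8%, but 66.1% for ratios of mean CPM, 71.4% in gene-rich cells (1125 against 450.0 genes) and 25.3% with wild-type cells of 31 and 32 days alone (377 against 1111), a comparison that rests on 3 D1 and 5 D2 wild-type neurons. Across genes the D1 and D2 differences had a Pearson correlation of 0.13 and a Spearman correlation of 0.142 (n = 11364 genes, which share the same 54 libraries and are not independent replicates).

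**Figure D1:**
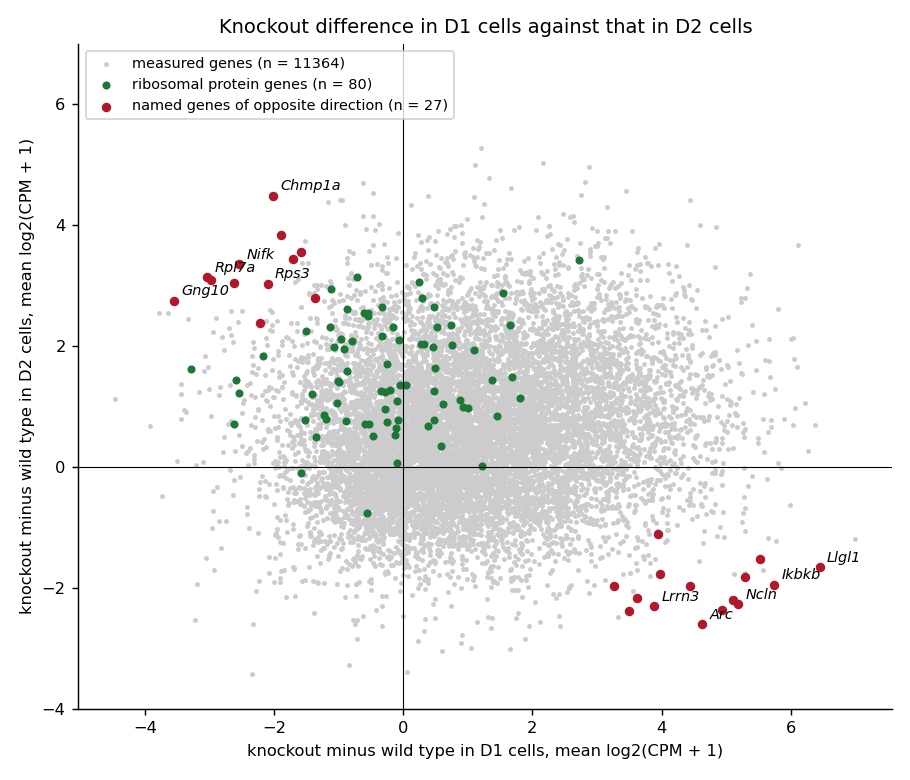
Knockout minus wild type in D1 neurons (horizontal axis) against the same difference in D2 neurons (vertical axis), both as differences of mean log2(CPM + 1); each point is 1 of 11364 measured genes. Named genes of opposite direction lie in the upper left and lower right, with Arc at 4.63 and -2.61 and Rpl7a at -3.03 and 3.14; most ribosomal protein genes lie in the upper left, 50 of 80 with a negative D1 and a positive D2 value.

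The same means also give the D1 minus D2 difference within each genotype. Of the 314 genes higher in knockout D1 and lower in knockout D2, 269 had a lower mean in wild-type D1 than in wild-type D2 neurons, while 313 had a higher mean in knockout D1 than in knockout D2; 268 (85.4%) crossed over. Of the 304 genes with the reverse pattern, 260 (85.5%) crossed over in the other direction, against 5752 (50.6%) of all measured genes. Part of that excess is arithmetic, since the calls and the crossing use the same 4 means. Across the 11364 genes the wild-type D1 minus D2 difference had a Pearson correlation of -0.0144 with the knockout D1 minus D2 difference and a Spearman correlation of -0.0125. These 2 differences share no cell, but they share genes, depth and gene detection.

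Named genes were required to keep opposite signs in mean log2(CPM + 1), in the same values centred on the median gene, in mean CPM, in gene-rich cells and with each knockout cell left out. Of 9214 eligible genes, 481 (5.22%) met this with the knockout higher in D1 and 306 (3.32%) with it lower in D1. The 12 of each direction with the largest smallest difference were taken, and those reported here are described. This choice used the same knockout cells, so separation of knockout D1 from knockout D2 neurons in named genes is partly built in. The share of all genes with such separation was not counted. At the edge of the ranking, Dusp11 (score 1.6618, the smallest size of either difference over these settings, in log2 units) was named and Llgl1 (1.6605) and Vstm2a (1.6581) came next; in the other direction Rps3 (1.337) was named and Rpp25l (1.333) was not.

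Arc, an activity-induced gene whose protein removes AMPA receptors from synapses and whose transcript is a known cargo of FMRP, stood first among genes higher in knockout D1 and lower in knockout D2 neurons (ENSMUSG00000022602.14, GRCm38 chromosome 15, 74669083 to 74672570). The 6 knockout D1 neurons held 1733, 499, 265, 1107, 448 and 3221 CPM and the 7 knockout D2 neurons 0, 11.5, 239.7, 0, 0, 17.4 and 0. Wild-type D1 neurons ranged from 0 to 2062 with a median of 104, and wild-type D2 neurons from 0 to 1773 with a median of 124. Every knockout D1 neuron was above every knockout D2 neuron, while both knockout groups overlapped the wild type. Mean CPM was 1212 ± 1123 (SD, n = 6 cells) against 422 ± 627 (n = 15) in D1, and 38.4 ± 89.1 (n = 7) against 337 ± 467 (n = 26) in D2. On the log scale the knockout differences were 4.63 and -2.61, and in gene-rich cells 2.51 and -5.33. The wild-type kinds differed by 0.24 and the knockout kinds by 7.48.

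Several of the genes that followed Arc were near 0 in knockout D2 neurons and present in nearly all knockout D1 neurons. Asxl1, which encodes a chromatin regulator of the Polycomb group, held 261, 49.4, 88, 148, 656 and 317 CPM in knockout D1 neurons and was read in 1 of 7 knockout D2 neurons, at 9.5. In wild-type cells it ranged from 0 to 89.2 with a median of 2.85 in D1 and from 0 to 370.3 with a median of 0.234 in D2. All knockout D1 neurons exceeded all knockout D2 neurons, and the differences from wild type were 5.11 and -2.20. Of its exon bases, 197 lie opposite another gene. Ikbkb, the kinase that releases NF-kappaB from its inhibitor, held 522, 220.1, 130.04, 91.2, 222 and 336 CPM in knockout D1 neurons and 39.9, 0, 0, 0.677, 0, 0 and 0 in knockout D2 neurons. Wild-type neurons ranged from 0 to 317 in D1 and from 0 to 296 in D2, with medians of 0 and 0.48. Knockout kinds again did not overlap, which the ranking favours, and the differences were 5.74 and -1.95.

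The genes of membranes and the secretory pathway in this direction were Ncln, Reep1, Lrrn3, Tmem108, Tmem245 and Ptch1. Ncln, which encodes nicalin of the endoplasmic reticulum membrane, held 161, 89.7, 141, 305, 0 and 309 CPM in knockout D1 neurons and 9.28, 0, 1.44, 0, 0, 0 and 1.08 in knockout D2 neurons. Wild-type D1 neurons had reads in 4 of 15 (highest 178) and wild-type D2 neurons in 13 of 26 (highest 259). The knockout groups overlapped only through D1 neuron 5, at 0, and the differences were 5.18 and -2.27. Reep1, which shapes tubular endoplasmic reticulum, held 62.6, 21.6, 359.9, 224, 731 and 285 CPM in knockout D1 and 26.4, 28.1, 32.3, 0, 0, 0 and 77.4 in knockout D2 neurons. Here the knockout groups overlapped, and wild-type neurons reached 1477 in D1 and 4661 in D2 from medians of 0 and 71.1. The differences were 4.94 and -2.36, after a wild-type D1 minus D2 difference of -2.89. Lrrn3, a leucine-rich repeat protein of the neuronal surface, held 0, 143, 0, 253, 582.4 and 238 CPM in knockout D1 neurons and was read in 1 knockout D2 neuron, at 13.5. Its wild-type median was 0 in both kinds, with highest values of 157 in D1 and 460.0 in D2, so that all 4 groups overlapped at 0. The differences were 3.88 and -2.30.

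Tmem108, a transmembrane protein of dendritic spines, and Tmem245 differed by 3.62 and -2.17 and by 4.43 and -1.97; 1553 exon bases of Tmem108 lie opposite another gene. With wild-type cells of 31 and 32 days alone Tmem245 was no longer opposed, at 3.55 and 1.28. Ptch1, the receptor of Hedgehog ligands, was low wherever it was read, at 7.15, 11.7, 60.8, 7.73, 0 and 112 CPM in knockout D1 neurons. It had no read in the 7 knockout D2 neurons. Its wild-type values ran from 0 to 9.95 in 15 D1 neurons and from 0 to 103 in 26 D2 neurons, with medians of 0. Summed counts of wild-type D2 neurons, which can rest on few neurons, put knockout D2 at least 311-fold lower against the floor of 3 counts. The log differences were 3.27 in D1 and -1.96 in D2, and the latter depends on the added 1 CPM and is no bound.

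The remaining genes of this direction act in protein turnover and RNA metabolism. Psmd8, a lid subunit of the proteasome, held 68.8, 215, 142, 171, 322 and 79 CPM in knockout D1 neurons and 58.8, 408, 109, 0, 0, 0 and 0 in knockout D2 neurons. The highest knockout value was thus in a D2 neuron, and the D2 difference of -2.39 came from 4 neurons at 0. In D1 the difference was 3.50; with wild-type cells of 31 and 32 days alone it was -0.84 in D1 and -1.55 in D2, no longer opposed. Rnf19a, a ubiquitin ligase, differed by 3.97 and -1.77, and Dusp11, an RNA phosphatase, by 5.29 and -1.82. The D2 value of Dusp11 was -2.76 without knockout D2 neuron 3, the only one of its group with reads, at 96.8 CPM.

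For 3 eligible genes (0.0326% of 9214) every knockout neuron lay on one side of the wild-type mean of its kind in log2(CPM + 1). Knockout D1 neurons were all above that mean and knockout D2 neurons all below it. For 0 genes the reverse held. The means were of log values and not of CPM. Llgl1, a regulator of cell polarity, held 624, 282, 148, 13.1, 189 and 363 CPM in knockout D1 neurons and had no read in knockout D2 neurons. By summed counts it was at least 461-fold lower there than in wild-type D2, a sum that can rest on few neurons. Wild-type neurons ranged from 0 to 158 in D1 and from 0 to 268 in D2, with medians of 0 and 0.36. Its differences were 6.45 and -1.66. Dhx16, an RNA helicase of the spliceosome, held 198, 52.2, 32.6, 186, 704 and 4.65 CPM in knockout D1 neurons and at most 0.362 in knockout D2 neurons. Wild-type medians were 0, with highest values of 158 in D1 and 120.2 in D2, and the differences were 5.53 and -1.52. Fggy, a carbohydrate kinase, was lower throughout, at 11.2, 7.28, 45, 23, 43.2 and 8.96 CPM in knockout D1 neurons. It had no read in knockout D2 neurons, by summed counts at least 187-fold lower than wild-type D2, a sum that can rest on few neurons. Reads were found in 1 D1 neuron of 15 and 8 D2 neurons of 26 in the wild type. Its differences were 3.94 and -1.11. The highest wild-type D1 value was exceeded by 4 of 6 knockout D1 neurons for Llgl1, 3 of 6 for Dhx16 and 2 of 6 for Fggy, and the others overlapped the wild type.

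**Figure D2:**
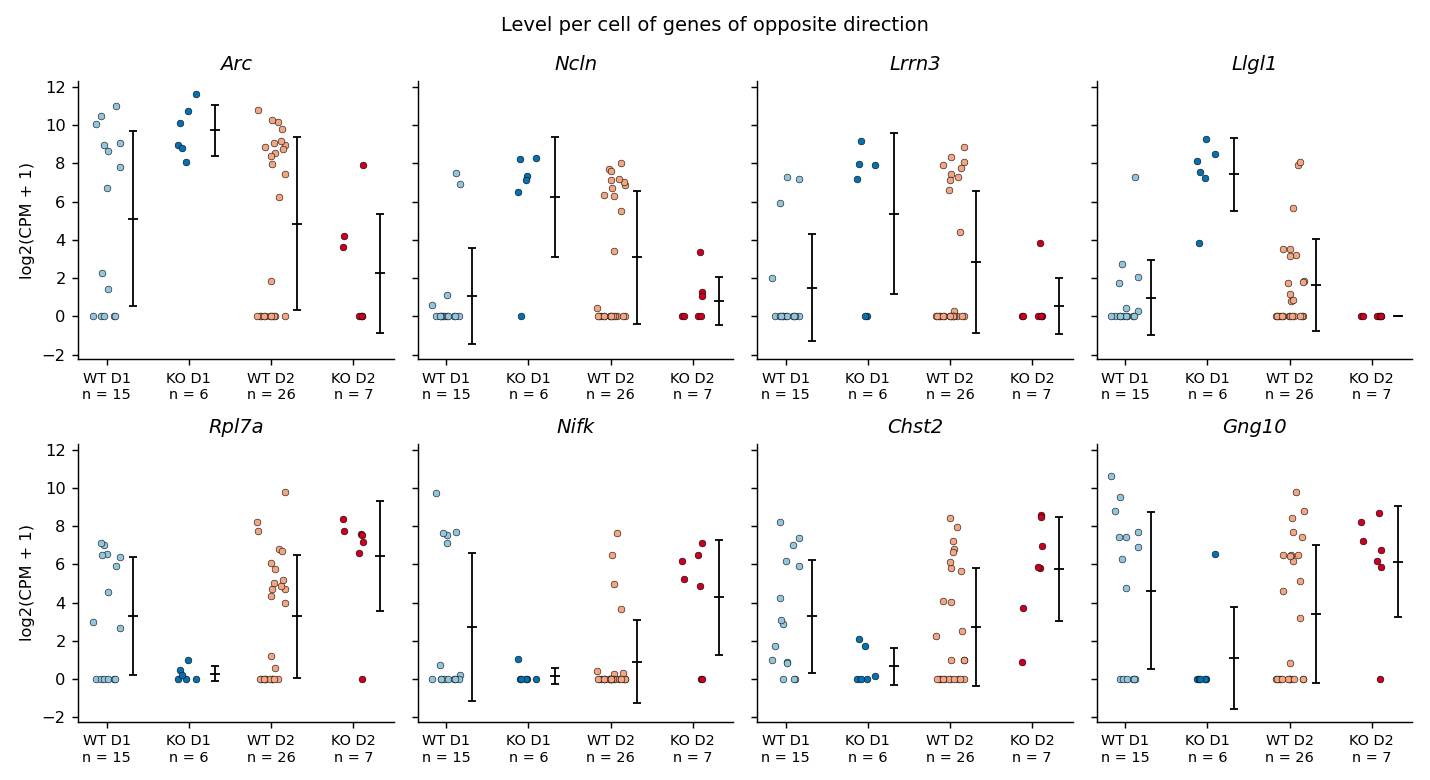
Level in every neuron, as log2(CPM + 1), of 8 genes of opposite direction; points are neurons, and bars beside them the mean and SD between neurons. In the upper panels (Arc, Ncln, Lrrn3, Llgl1) most knockout D1 neurons are high and most knockout D2 neurons at or near 0. For Arc, knockout D2 neuron 3 held 239.7 CPM and neurons 2 and 6 held 11.5 and 17.4. In the lower panels (Rpl7a, Nifk, Chst2, Gng10) the order is reversed. Wild-type neurons of both kinds spread from 0 to high values.

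Among the genes lower in knockout D1 and higher in knockout D2 neurons were Rpl7a and Rps3, which encode proteins of the cytosolic ribosome. Rpl7a, of the large subunit (ENSMUSG00000062647.16, GRCm38 chromosome 2, 26910764 to 26913318), held 1.02, 0, 0, 0.386, 0.151 and 0 CPM in knockout D1 neurons. The 7 knockout D2 neurons held 191, 334, 144, 95.2, 185, 216 and 0. Wild-type neurons ranged from 0 to 137 with a median of 6.99 in D1 and from 0 to 877 with a median of 17.1 in D2. All knockout D2 neurons but one were above all knockout D1 neurons, and both groups lay within the wild-type range. The differences were -3.03 and 3.14, and in gene-rich cells -5.24 and 2.24.

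Rps3, of the small subunit, held 5.79, 0, 65.6, 4.64, 31.1 and 89.9 CPM in knockout D1 and 350.3, 882, 101, 145, 391, 111 and 113 in knockout D2 neurons. Knockout kinds did not overlap for Rps3, which the ranking favours. Its wild-type values ran from 0 to 1466 in D1 (median 194) and from 0 to 984 in D2 (median 37.8). The differences were -2.10 and 3.03, the D1 value being -1.34 without knockout D1 neuron 2. Ribosomal protein genes have many near-identical processed copies, and Rpl7a and Rps3 each share 145 exon bases with small nucleolar or predicted RNA genes on the same strand, so that their counts are uncertain.

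Transcripts of ribosomal proteins are known for a run of pyrimidines at their start, through which their translation is controlled together. The starts of Rpl7a and Rps3 are shown because these genes lay on the same side, from 50 bases before the RefSeq start to 30 bases from it on (GRCm38.p6, each 5′ to 3′ on the strand of the gene); capitals mark CTTTC, a short pyrimidine stretch searched for after the values were known. Rpl7a lies at chr2:26910757-26910836 on the plus strand and Rps3 at chr7:99483680-99483759 on the minus strand.
Rpl7a: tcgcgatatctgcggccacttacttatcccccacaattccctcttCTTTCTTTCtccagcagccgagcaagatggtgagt
Rps3: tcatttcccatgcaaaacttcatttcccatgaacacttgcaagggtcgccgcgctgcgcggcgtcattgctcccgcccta
The stretch occurred in overlapping copies at the start of Rpl7a and was not among the letters of this window of Rps3. Of 80 measured ribosomal protein genes 59 had an entry, and 20 of these (33.9%) held CTTTC on the strand of the gene and 6 (10.2%) on the other strand. The shares were 7.72% and 7.13% of 8601 measured genes and 10.3% and 9.37% of all 27025 promoters. The median difference of differences was -1.25 over the 20 genes with the stretch and -1.76 over the 39 without it. Outside the ribosomal proteins, 6.76% of the genes lower in knockout D1 and higher in knockout D2 held it on the strand of the gene, near the share of all measured genes. A match is a description of letters and not a functional site.

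The other genes of this direction had varied functions. Nifk, a nucleolar protein of ribosome assembly that binds Ki-67, was read in 1 knockout D1 neuron, at 1.04 CPM, and held 28.5, 71.5, 140.3, 87.4, 0, 36.2 and 0 CPM in knockout D2 neurons. Wild-type neurons had reads in 7 of 15 in D1 (highest 846) and 7 of 26 in D2 (highest 196), with medians of 0. All 4 groups overlapped at 0 or near it, and the differences were -2.54 and 3.35. Chst2, a sulfotransferase of carbohydrate chains, held 0, 0, 2.36, 3.28, 0 and 0.111 CPM in knockout D1 and 55.7, 0.826, 122, 58.2, 382, 12.1 and 358 in knockout D2 neurons. Only knockout D2 neuron 2 fell among the D1 values, wild-type neurons reached 299.9 in D1 and 348 in D2, and the differences were -2.62 and 3.05. Gng10, a G protein gamma subunit, was read in knockout D1 neuron 6 alone, at 90.7 CPM, against 417, 299, 58.2, 71.5, 0, 149 and 106 in knockout D2 neurons. Wild-type values ran from 0 to 1568 in D1 and from 0 to 878 in D2, with medians of 76.9 and 4.53. Its differences were -3.54 and 2.75, but 946 of its 1314 exon bases are shared with a gene on the same strand.

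Chmp1a, of the machinery that buds vesicles into endosomes, was read in 1 knockout D1 neuron, at 221 CPM, and held 126, 65.4, 346, 136, 968, 155 and 0 in knockout D2 neurons. The differences were -2.02 and 4.49, and the D1 value was -3.31 without knockout D1 neuron 1. Erh, a small conserved nuclear protein, was read in every knockout D2 neuron, from 21 to 212 CPM, and in 3 of 6 knockout D1 neurons, up to 28.1, with differences of -1.89 and 3.84; 765 of its exon bases lie opposite another gene. Nap1l4, a histone chaperone, differed by -1.71 and 3.43, and Nudt4, a hydrolase of inositol pyrophosphates, by -1.58 and 3.55, with -2.69 in D1 without knockout D1 neuron 2. Mphosph6, a cofactor of the RNA exosome, had no read in knockout D1 neurons. By summed counts it was at least 335-fold lower there than in wild-type D1, a sum that can rest on few neurons. It held 84.6, 57.8, 69.3, 15.2, 0, 124 and 0 CPM in knockout D2 neurons, and the differences were -1.36 and 2.80.

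The pattern of Rpl7a and Rps3 was shared by their list. Of 84 listed genes of cytosolic ribosomal proteins 80 were measured; 50 (62.5%) were lower in knockout D1 and higher in knockout D2 against 16.9% of all measured genes, and 0 had the reverse signs. With 1 log2 unit in each kind 15 passed, 18.8% of the list against 2.68%. The list median was -0.28 in D1 and 1.44 in D2 against 0.89 and 0.55 over all genes, and the difference of differences was below the all-gene median for 77 of 80, the exceptions being Rpl17, Rpl19 and Rpl7l1, named here because of their values. The median D1 minus D2 difference of the list was 0.48 in wild-type and -1.40 in knockout neurons. In gene-rich cells the list medians were -0.70 and 1.09, and 57 genes were lower in D1 and higher in D2, against 19.2% of all genes. With wild-type cells of 31 and 32 days alone the list medians were -0.43 and 1.97. The median difference of differences over all genes was then -0.53, against 0.38 with all wild-type cells. The mean of the list in each neuron was 3.90, 4.83, 4.44, 4.89, 3.56 and 6.16 log2 units in knockout D1 and 7.20, 8.22, 5.29, 4.58, 5.38, 6.28 and 5.66 in knockout D2 neurons. Wild-type D1 neurons ranged from 2.51 to 7.64 with a median of 4.96 and wild-type D2 neurons from 2.45 to 6.73 with a median of 4.50. The knockout D2 neurons 1 and 2 were above the wild-type D2 range and the other 5 within it, and all knockout D1 neurons were within the wild-type D1 range, so that the groups overlapped. Leaving out any 1 neuron gave list medians of the difference of differences from -2.11 to -1.42.

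**Figure D3:**
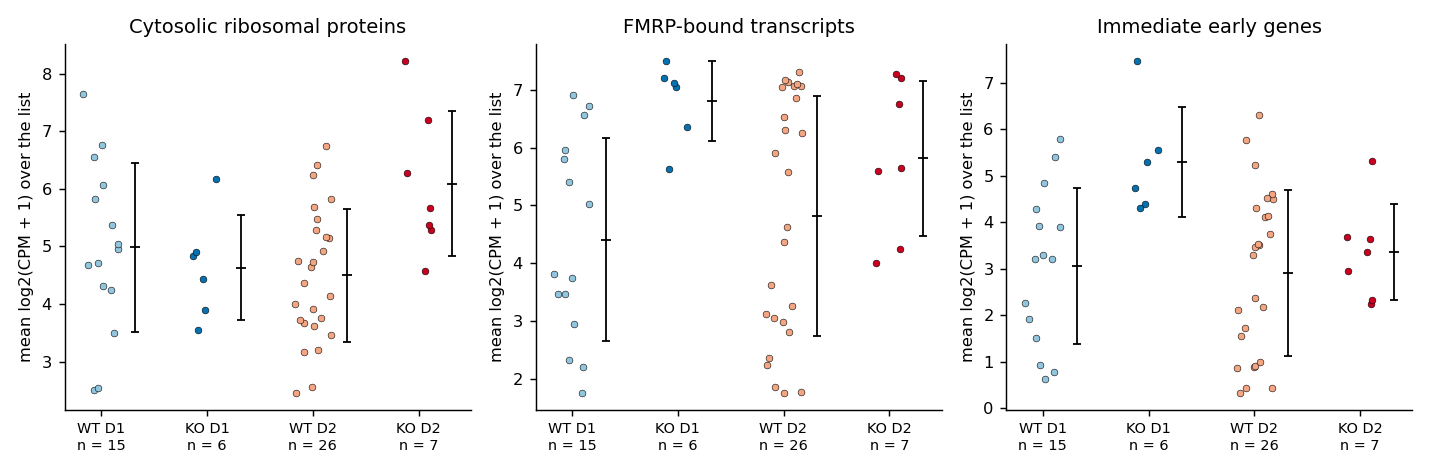
Mean log2(CPM + 1) over the measured members of 3 lists in every neuron (points), with the mean and SD between neurons beside them. Of the knockout D2 neurons, 1 and 2 have the highest ribosomal protein means, 7.20 and 8.22, and the highest wild-type D1 neuron has 7.64; FMRP-bound and immediate early means of the 6 knockout D1 neurons sit in the upper part of the wild-type D1 range or above it.

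Other lists of protein synthesis, turnover and energy supply had median differences of differences below the 0.38 of all genes, from -0.98 to -0.17. Their counts of opposite signs are to be read against 16.9% of all genes for lower in D1 and higher in D2 and 21.3% for the reverse. In gene-rich cells these shares of all genes were 19.2% and 33.6%. Among 78 nuclear genes of the respiratory chain, 23 (29.5%) were lower in knockout D1 and higher in knockout D2 and 4 (5.13%) the reverse, with medians of 0.32 and 1.47; in gene-rich cells the counts were 53 and 4 and the medians -0.63 and 0.81. Uqcrh, of complex III, differed by -1.54 and 2.19, and Ndufa2, of complex I, by -0.86 and 3.13; without knockout D1 neuron 5 the D1 value of Uqcrh was -0.91. The 13 mitochondrially encoded genes had medians of -0.997 and 0.03, with all 13 differences of differences below the all-gene median and 6 of opposite sign, a count that ran from 2 without wild-type D2 neuron 7 to 9 without knockout D2 neuron 2. In gene-rich cells their medians were -0.0088 and 0.99. Of 52 translation factors 10 (19.2%, near the share of all genes) were lower in D1 and higher in D2 and 2 (3.85%) the reverse, with medians of 0.60 and 1.05; Eef1e1, of the tRNA synthetase complex, differed by -2.03 and 2.57 (-3.22 in D1 without knockout D1 neuron 3) and Eif3l, of initiation factor 3, by -1.33 and 2.46. Leaving out wild-type D1 neuron 5 or knockout D1 neuron 4 moved the D1 value of Eif3l to -0.78 or -2.33.

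In the proteasome list 11 of 44 genes (25%) were lower in D1 and higher in D2 and 3 (6.82%) the reverse, and 25 lay below the all-gene median. They included Psmb4 (-0.87 and 3.47) in the first and Psmd8 in the second group, and the list medians were 1.10 and 1.503. Chaperones, in the same order, held 17 (32.1%) and 6 (11.3%) of 53, with medians of 0.52 and 1.10; Hspa9, the mitochondrial Hsp70, differed by -0.32 and 3.33 and Dnajc13 by 2.27 and -1.11, values that were 1.51 without knockout D1 neuron 2 and -1.84 without knockout D2 neuron 3. Glycolytic enzymes held 6 (37.5%) and 1 (6.25%) of 16, with medians of 0.67 and 0.87. Tpi1 differed by -1.07 and 1.39, its D1 value being 0.02 without knockout D1 neuron 1 and -1.68 without wild-type D1 neuron 6 or 14. Aldoc, also an astrocyte marker, differed by -1.83 and 0.08, with -0.68 in D1 without knockout D1 neuron 3.

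Lists of neuronal signalling, other than presynaptic genes, had median differences of differences above that of all genes, often with a larger positive value in D1 than in D2 rather than opposite signs. The larger value in D1 depended on the wild-type cells, for all genes as for the lists named next. With those of 31 and 32 days alone (3 D1 and 5 D2 neurons) all genes had medians of 0.29 and 0.84, and the larger median was in D2 for glutamate receptors (0.37 and 0.84), GABA receptors (-0.17 and 0.76), sodium, calcium and HCN channels (0.69 and 1.49), potassium channels (0.27 and 0.52), postsynaptic density genes (1.23 and 1.46), dopamine and cAMP signalling (0.09 and 1.52) and mTOR, PI3K and ERK signalling (0.75 and 0.94). FMRP-bound transcripts then had 1.96 and 1.46, the larger in D1. FMRP-bound transcripts had medians of 2.34 in D1 and 1.11 in D2, and 52 of 59 were higher in both kinds; 5 (8.47%) were higher in D1 and lower in D2, against 21.3% of all genes, and 13 without knockout D2 neuron 1. In gene-rich cells their medians were 1.31 and -0.61, and 32 of 59 were then higher in D1 and lower in D2 with 1 the reverse. The shares of all genes in those cells were 33.6% and 19.2%. Sv2a, a synaptic vesicle protein, ran against the list at -1.75 and 1.68, and at -2.82 in D1 without knockout D1 neuron 3. The list mean per neuron was 5.63 to 7.50 in the 6 knockout D1 neurons and 3.998 to 7.28 in the 7 knockout D2 neurons, against 1.76 to 6.91 in wild-type D1 and 1.77 to 7.31 in wild-type D2 neurons, so that all groups overlapped.

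Immediate early genes, which are transcribed within minutes of firing, had medians of 2.29 and 0.40. Of 25 measured, 7 (28.0%) were higher in D1 and lower in D2 and 3 (12%) the reverse, against 21.3% and 16.9% of all genes. In gene-rich cells the counts were 13 and 2, against 33.6% and 19.2% of all genes in those cells, and the medians 1.27 and -0.52. After Arc, the member with the largest opposed difference was Nr4a1, a nuclear receptor, at 3.17 and -0.56. The list mean was 5.30, 4.74, 4.38, 7.47, 4.30 and 5.56 in knockout D1 and 3.64, 3.68, 5.31, 3.36, 2.24, 2.95 and 2.33 in knockout D2 neurons. Wild-type D1 neurons ranged from 0.63 to 5.80 and wild-type D2 neurons from 0.32 to 6.31, so that knockout D1 neuron 4 alone was outside the wild-type range. With wild-type cells of 31 and 32 days alone, the list medians were 0.41 and 0.70 and its difference of differences, -0.67, lay below the all-gene median of -0.53; the shift of this list was not present in that comparison.

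Counts of opposite signs among receptors and channels are to be read against 21.3% of all genes for higher in D1 and lower in D2 and 16.9% for the reverse. Their counts in gene-rich cells are to be read against 33.6% and 19.2% of all genes in those cells. Of 31 glutamate receptor genes 11 (35.5%) were higher in D1 and lower in D2 and 3 (9.68%) the reverse, with medians of 2.14 and 0.66; in gene-rich cells the counts were 17 and 1 and the medians 0.81 and -0.86. Grm7 and Grm2, presynaptic metabotropic receptors, differed by 4.48 and -0.85 and by 3.62 and -1.31. Grm2 had no read in knockout D2 neurons. By summed counts this was at least 479-fold lower than wild-type D2, a sum that can rest on few neurons. In the same order, which is kept for the lists that follow, GABA receptor genes held 3 (20%) and 0 of 15, with medians of 2.10 and 1.31. Sodium, calcium and HCN channel genes held 3 (10.7%) and 2 (7.14%) of 28, with medians of 2.29 and 0.72. Their median difference of differences, 1.54, was the highest of the 31 lists; it ran from 0.88 without knockout D2 neuron 5 to 2.02 without neuron 4, which also brought the 3 genes to 7. In gene-rich cells 14 genes were higher in D1 and lower in D2 and 0 the reverse, with medians of 1.37 and -0.71. Cacna1e, an R-type calcium channel, differed by 2.04 and -0.02 (3.35 in D1 without knockout D1 neuron 1). Potassium channel genes held 14 (26.4%) and 10 (18.9%) of 53, with medians of 1.02 and 0.19; Kcnf1, a modulatory subunit, differed by 4.63 and -0.64.

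Postsynaptic density genes held 9 (23.7%) and 3 (7.89%) of 38, with medians of 1.73 and 0.84; after Arc, the scaffold gene Homer2 differed by 3.54 and -0.47. Among presynaptic genes 1 of 48 was higher in D1 and lower in D2 and 6 were the reverse, with medians of 1.68 and 1.42, and Rims3, of the active zone, differed by -3.11 and 0.09. Dopamine and cAMP signalling genes held 13 (27.7%) and 5 (10.6%) of 47, with medians of 1.07 and 0.70. Apart from Drd1, the member with the largest opposed difference was Adcy5, an adenylyl cyclase, at 1.90 and -1.21; its D1 value was 1.03 without knockout D1 neuron 3 and 1.06 without neuron 4, and its D2 value -2.13 without knockout D2 neuron 3. Genes of mTOR, PI3K and ERK signalling held 13 (28.3%) and 4 (8.70%) of 46, with medians of 1.80 and 0.43; Pik3ca, a catalytic subunit of PI3K, differed by 3.71 and -0.54.

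**Figure D4:**
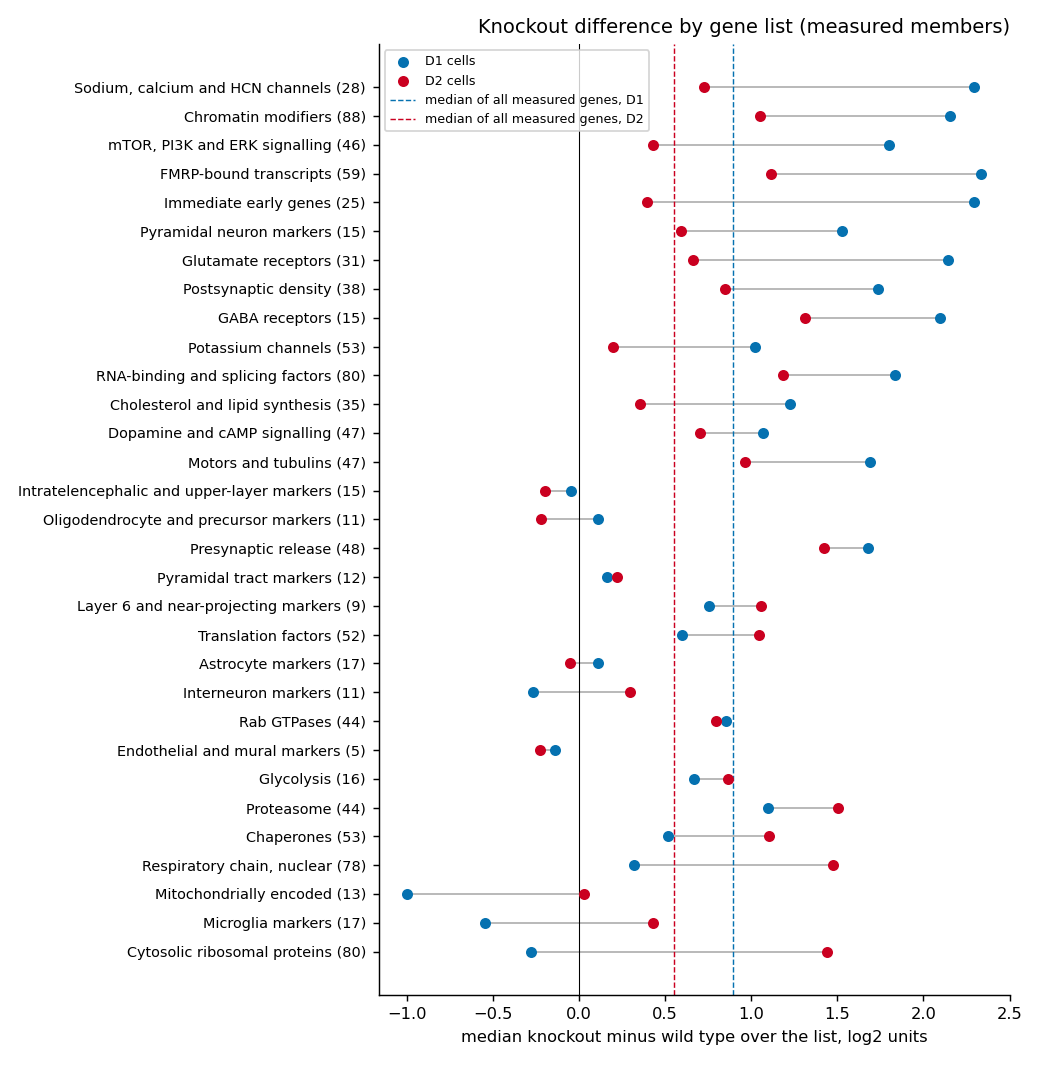
Median knockout minus wild-type difference (log2 units) over the measured members of each gene list, in D1 (blue) and D2 (red) neurons, with member numbers in brackets and the medians of all measured genes as dashed lines; lists are ordered by the median difference of differences. Cytosolic ribosomal proteins stand at the foot, at -0.28 and 1.44, and sodium, calcium and HCN channels at the head, at 2.29 and 0.72.

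Nuclear and cytoskeletal lists were mixed. Their counts are again to be read against 21.3% of all genes for higher in D1 and lower in D2 and 16.9% for the reverse. Chromatin modifiers held 18 (20.5%) and 6 (6.82%) of 88, with medians of 2.15 and 1.05; Ehmt1, a histone methyltransferase, differed by 4.90 and -0.99 and Kdm3a, a demethylase, by 4.09 and -0.79. RNA-binding and splicing factors held 8 (10%) and 9 (11.2%) of 80, with medians of 1.83 and 1.18. Hnrnpa1, a splicing regulator, differed by 1.66 and -3.01, its D1 value being 0.84 or 0.98 without knockout D1 neuron 3 or 6, and Khdrbs2 by 2.98 and -0.94. Motor and tubulin genes held 4 (8.51%) and 9 (19.1%) of 47, with medians of 1.69 and 0.97. Tuba1b, an alpha tubulin that shares 426 exon bases with a predicted gene, differed by -0.55 and 2.36 and the kinesin gene Kif3a by 1.79 and -0.81. Rab GTPases held 8 (18.2%) and 10 (22.7%) of 44, with medians of 0.85 and 0.79. Rab10 differed by 4.65 and -1.06, the D2 value running from -1.84 to -0.49 as knockout D2 neurons were left out. Rab4b differed by 3.52 and -1.76 (-2.75 without knockout D2 neuron 2), with 1280 exon bases shared with a predicted gene. Genes of cholesterol and lipid synthesis held 9 (25.7%) and 7 (20%) of 35, with medians of 1.23 and 0.35. Sc5d differed by 4.80 and -0.74 and Scap by 2.78 and -0.18.

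Markers of neuron subtypes gave no common direction. Their counts, from few genes each, are to be read against the same 21.3% and 16.9% of all genes. Of 12 measured markers of pyramidal tract neurons 0 had opposite signs, with medians of 0.16 and 0.22. General pyramidal neuron markers held 4 and 0 of 15, with medians of 1.53 and 0.59; Neurod1 differed by 1.00 and -1.14, and Rtn4r by 1.53 and -0.39, the D1 value running from 0.69 to 2.47 as knockout D1 neurons were left out. Intratelencephalic and upper-layer markers held 4 and 3 of 15, with medians of -0.04 and -0.20; Calb1 differed by 1.43 and -1.01 (0.36 in D1 without knockout D1 neuron 5, 0.67 without neuron 3, and -1.97 in D2 without knockout D2 neuron 1), and Pou3f2 by -0.83 and 1.496 (0.71 in D2 without knockout D2 neuron 2). Layer 6 and near-projecting markers held 2 and 1 of 9, with medians of 0.76 and 1.06; Foxp2 differed by 0.04 and -1.55, and Sla2 by -0.67 and 1.51, with 0.81 to 2.27 in D2 as knockout D2 neurons were left out.

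Reads of other cell types were present and differed between the groups. Microglial markers held 2 (11.8%) and 8 (47.1%) of 17, against 21.3% and 16.9% of all genes, with medians of -0.54 and 0.43. Without knockout D2 neuron 1 the 8 became 2 and the D2 median -0.28, and in gene-rich cells 4 and -0.45. Their summed level ran from 0.319 to 11469 CPM in wild-type D1, from 96.7 to 2794 in knockout D1, from 2.59 to 6679.6 in wild-type D2 and from 39.6 to 4759 in knockout D2 neurons. C1qa, of the complement cascade, was read in 9 of 15, 1 of 6, 7 of 26 and 2 of 7 neurons, with differences of -3.92 and 0.68. Fcer1g differed by -2.29 and 1.54, with -3.47 in D1 without knockout D1 neuron 4 and 0.70 to 0.99 in D2 without knockout D2 neuron 7, 5 or 1. Among knockout D2 neurons the list mean was highest in neuron 1, at 7.19, which also had the second highest ribosomal protein mean of that group, while neuron 2, with the highest, had the lowest microglial mean, 0.33. A wild-type D2 neuron reached 8.26. The part of these reads in the ribosomal protein pattern was not tested.

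Astrocyte markers held 6 (35.3%) and 4 (23.5%) of 17, with medians of 0.11 and -0.06. These counts and those that follow are to be read against 21.3% and 16.9% of all genes. Clu, abundant in astrocytes, differed by 0.23 and -2.87, and Gja1, their gap junction protein, by -1.35 and 1.33, values that leaving out single neurons moved to between -2.33 and -0.79 in D1 and to 0.35 in D2. Summed astrocyte levels ran from 797 to 4840.2 CPM in knockout D1 and from 527 to 13386 in knockout D2 neurons, against 131 to 28862 in wild-type D1 and 226 to 24679.8 in wild-type D2 neurons. Oligodendrocyte markers held 2 and 1 of 11 (medians 0.11 and -0.22), with Mobp, a myelin protein, at -2.03 and 1.60 and at 0.37 in D2 without knockout D2 neuron 5 and 0.91 without neuron 4. Without knockout D1 neuron 6, the only one of its group with Mobp reads, the D1 value was -3.61. Interneuron markers held 1 (9.09%) and 4 (36.4%) of 11 (medians -0.27 and 0.30). Gad1 and Gad2, the enzymes that make GABA, differed by -0.74 and 1.05 and by -0.27 and 1.47, Gad1 with 0.44 to 0.65 in D2 without knockout D2 neuron 2, 4 or 7 and Gad2 with 0.78 to 0.81 without neuron 4 or 7. Endothelial and mural markers held 0 and 1 of 5, with medians of -0.14 and -0.23, the 1 being Tagln, of smooth muscle, at -0.09 and 0.33.

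Opposite signs did not hold for every list example. In gene-rich cells the same sign in both kinds was found for Sv2a (-2.38 and -0.65), Rims3, Nr4a1 (-0.04 and -3.91), Tpi1, Sla2, Foxp2, Clu, C1qa, Fcer1g and Tagln. By counts summed over each group, Kif3a and Cacna1e were lower with the knockout in both kinds. In D1 they were at 224 and 238 CPM, against 322 and 317 in the wild type. Leaving out 1 neuron also ended the opposition for some. By D1 value this held for Ndufa2 (0.18 without knockout D1 neuron 5), Tuba1b (0.70 without neuron 1), Tpi1 (0.02 without neuron 1) and Neurod1 (-0.17 without neuron 5). Hspa9 had 0.29 to 0.33 without knockout D1 neuron 1, 5 or 6 and 0.03 to 0.06 without wild-type D1 neuron 8 or 4. By D2 value it held for Rims3 (-0.46 without knockout D2 neuron 2), Nr4a1 (0.03 without neuron 6), C1qa (-0.26 without neuron 1 and -0.07 without neuron 4) and Rtn4r (0.04 without neuron 5, 6 or 7). Cacna1e, Aldoc, Scap, Foxp2, Clu and Tagln lay so near 0 in one kind that leaving out any of several neurons turned that value. Its extremes were 0.84 for Cacna1e, -0.47 for Aldoc and 0.35 for Scap in D2, -1.55 for Foxp2 and -0.66 for Clu in D1, and, for Tagln, 0.13 in D1 and -0.22 in D2. Sox10, a regulator of oligodendrocytes at 0.91 and -0.81, was at 0 in D1 without knockout D1 neuron 4.

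The direction of the difference varied with exon length, which the choice of genes did not use. Exon length here is the merged exon bases of all annotated transcripts of a gene, and not the length of 1 transcript. The median exon length was 5146 bases for the genes higher in knockout D1 and lower in knockout D2, 3229 for the reverse (3268.5 without ribosomal protein genes) and 4697 over all measured genes (97.1% had a length). When the measured genes were divided into 5 equal bins by exon length, the median D1 difference was 0.29, 0.70, 0.88, 1.13 and 1.64 from the shortest to the longest. The median D2 difference was 0.59, 0.47, 0.46, 0.59 and 0.68. The share of genes lower in knockout D1 and higher in knockout D2 by 1 log2 unit each was 5.07% in the shortest bin and 1.09% in the longest, and the reverse share 1.59% and 2.99%, with its highest value, 3.53%, in the third. In gene-rich cells the median difference of differences ran from -0.34 in the shortest to 1.23 in the longest bin. The shortest bin, up to 2618 exon bases, had a median difference of differences of -0.27, and ribosomal protein genes -1.74. The share lower in knockout D1 and higher in knockout D2 by 1 log2 unit each was 5.07% in that bin and 18.8% of ribosomal protein genes. Not all of these lie in that bin, Rps3 having 4483 exon bases, and level was not matched. The part of length in the ribosomal protein pattern was not tested.

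**Figure D5:**
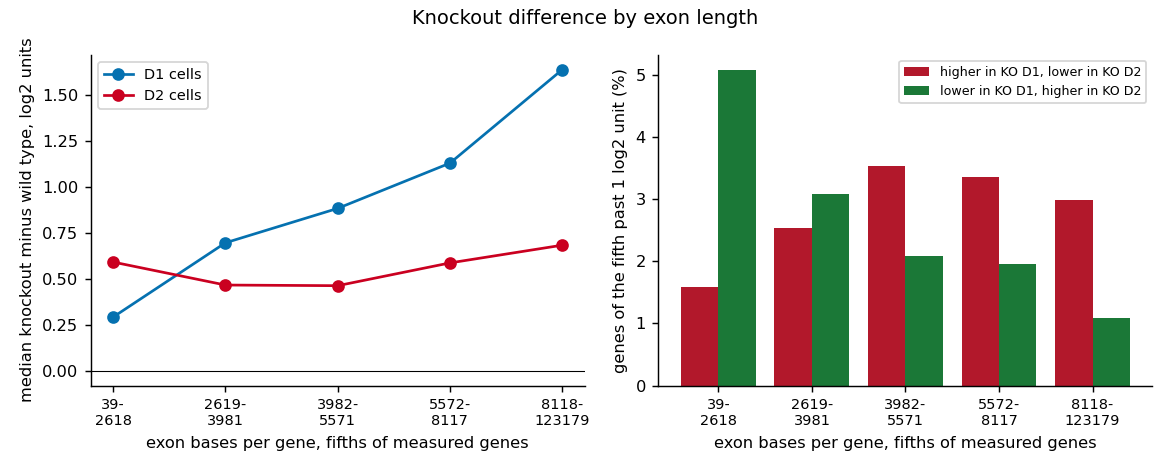
Left, the median knockout minus wild-type difference (log2 units) in D1 and D2 neurons over 5 equal bins of measured genes by exon length (bases). Right, the percentage of genes in each bin past 1 log2 unit in opposite directions; the D1 median climbs from 0.29 to 1.64 while the D2 median stays between 0.46 and 0.68.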

How the data were processed

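The cytosol of single patched neurons was sequenced with a Nextera XT library, per the labels' protocols. Per the submitters' processing notes the tools were Trimmomatic, STAR and featureCounts and the build GRCm38; no version or setting is named there. The authors deposited a table of raw read counts per gene and a table of normalized values (used as signal in an alternative), which in each cell are the counts times a single factor, 0.373 to 51.5 between cells. Of the deposited columns, 2 matched no label and were not used. Counts were scaled to CPM and averaged as log2(CPM + 1) within the 4 groups, with Python 3.11.15, numpy 2.4.6, pandas 2.3.3 and scipy 1.17.1; edgeR 4.0.16 in R 4.3.3 gave TMM factors only. Because the labels name no animal, no count test was run, and counting floors of 3 counts cover counting error only.

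Genes were measured at a mean CPM of at least 1 with reads in at least 10% of cells. A gene could be named at a mean of at least 10 CPM and a read in at least 33.3% of cells of 1 group; the 12 per direction with the highest score, up to 8 per direction in which every knockout cell agreed, Fmr1 and its relatives, the dopamine receptors, and the 2 opposed members of each of 31 lists with the largest difference of differences were named, apart from some that are not reported here. Members and lists were chosen with earlier results of these data known. Gene positions and exon lengths are from GENCODE vM21. On simulated data with 11364 genes, of which 100 in each direction were changed by 2 log2 units, 70% and 76% were called and 1.27% of unchanged genes. There each gene varied independently in each cell about a common mean, without gene-poor cells or animals. The 1.27% is thus a check of the calculation and not a rate of false calls in these neurons. Alternatives were another pseudocount, scaling, centring, filter, depth, subset of cells and leaving out each cell. No 2 cells had identical counts.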

Additional observations from a re-analysis of the deposited data

Results flagged for a closer look

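In groups of 6 or 7 neurons, single neurons stood far from the others of their group by Dixon's criterion, which chance meets in about 1 of 20 groups. Values are log2(CPM + 1). Among knockout D1 neurons these were neuron 5 for Ncln (0), neuron 2 for Nifk (1.03) and Nudt4 (6.64), neuron 6 for Gng10 (6.52) and neuron 1 for Chmp1a (7.80). Among knockout D2 neurons, neuron 1 stood above the others for Ncln (3.36), Lrrn3 (3.86), Tmem108 (6.14) and Ikbkb (5.35), neuron 2 for Asxl1 (3.39), neuron 3 for Dusp11 (6.61) and neuron 7 for Dhx16 (0.445). Knockout D2 neurons stood below the others at neuron 7 for Rpl7a (0) and Chmp1a (0), neuron 5 for Gng10 (0) and neuron 3 for Nap1l4 (1.66). Knockout D2 neuron 5 also had reads in 2904 genes, the fewest of its group. In groups where nearly all neurons are at 0, 1 neuron with reads meets the criterion by itself.

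The difference of differences was 8.11 for Llgl1, 7.05 for Dhx16 and 5.05 for Fggy, with every knockout D1 neuron above and every knockout D2 neuron below the wild-type mean of its kind. The difference was not tested.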

How the results depend on the processing

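No paired analysis was possible because replicate numbers only follow the order of deposit. Genes higher in knockout D1 and lower in knockout D2 numbered 314, and genes with the reverse pattern 304. The counts were 59 and 63 with a pseudocount of 10, 1061 and 544 from ratios of mean CPM, and 504 and 557 from the authors' normalized values. Centring on the median gave 487 of the reverse pattern, gene-rich cells 1125 of the former, and wild-type cells of 31 and 32 days 1111 of the reverse pattern. The median difference of differences, 0.38, was 0.20 with a pseudocount of 10, 0.032 after centring, 0.080 with no filter and -0.53 with wild-type cells of 31 and 32 days. Leaving out 1 neuron gave 255 to 496 and 247 to 407 genes and medians of 0.13 to 0.51. The former count was 494, 496 and 477 without knockout D2 neuron 1, 3 and 4, and the median 0.24 and 0.13 without knockout D1 neuron 2 and knockout D2 neuron 5. Differences of differences turned negative for Fxr1 with a pseudocount of 10 (-0.33), in mean CPM (-2.64) and with wild-type cells of 31 and 32 days (-1.81), and for Cacna1e in mean CPM (-0.32). With wild-type cells of 31 and 32 days they did so for Khdrbs2 (-0.36), Rtn4r (-1.90) and Clu (-2.31). Leaving out 1 neuron, Foxp2 gave -0.0068 (without knockout D1 neuron 6) to 2.17 and Tagln -1.11 to 0.13 (without knockout D2 neuron 7). The cause was not tested. Few neurons per group, unknown animals and genes read in few cells limit all values.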
